A study of Mus musculus with 8 samples.

Results

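The genes described here are 35 enzymes and carriers of fatty acid oxidation and ketone body formation, chosen by name from the 25229 genes of the count tables. They comprise 20 genes of mitochondrial proteins, 10 of peroxisomal proteins and 5 that were kept apart because the protein acts in the cytosol, at a membrane or in several compartments (Acsl1, Crat, Eci2, Acot1 and Vnn1). All 35 passed the filter on low counts, with 38 to 132116 reads per gene and library.

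The 8 mice, all C57BL/6, each gave 1 strand-specific, ribosome-depleted bulk RNA-seq library of liver cells. Every mouse was Ifih1-/-, so that MDA5, a cytosolic sensor of viral RNA, was missing, and every mouse was Alb-Cre+, with Cre under the albumin promoter and hence active mainly in hepatocytes. The groups differed in Adar, called Adar1 in the labels, which encodes an enzyme that edits adenosine in double-stranded RNA: 3 mice were wt/wt, 2 were wt/flox and 3 were flox/flox. Mice were aged 11, 9 and 7 weeks in replicates 1, 2 and 3 of each group, with no wt/flox mouse of 7 weeks. The design text counts 2 flox/flox mice, but 3 samples carry that genotype, and all were used. Cells were freed by collagenase and cleaned on Percoll, which favours hepatocytes but leaves some other liver cells. The design asks how depletion of Adar1 alters the liver transcriptome on an Ifih1-null background, and the question here is what happened to the machinery that burns fatty acids.

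Fatty acids are activated to acyl-CoA esters and handed to carnitine by Cpt1a at the outer mitochondrial membrane, the step at which malonyl-CoA limits entry. Inside the matrix, chain-length-specific dehydrogenases, hydratases and thiolases shorten the chain by repeated cycles, and the electron transfer flavoprotein passes the electrons of the first step to the respiratory chain. In liver much of the acetyl-CoA becomes ketone bodies. Peroxisomes use a parallel set of enzymes for very long, branched and dicarboxylic chains, and the nuclear receptor PPAR-alpha is known to induce many genes of both organelles in fasting.

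Sense gene reads numbered 75875711 to 132303735 per library. Levels are given as CPM, sense counts scaled to a common library size after TMM, and a gene was called higher or lower at an adjusted p below 0.05 in an edgeR fit over 14728 genes that included sex. Reads of Adar, the targeted gene, stood at 28.1, 30.0 and 53.6 CPM in wt/wt against 22.0 and 31.8 in wt/flox and 49.4, 35.9 and 42.1 across flox/flox. These levels overlap, so whole-gene counts of Adar do not separate the genotypes, and no exon-level values were analysed here. Ifih1 had 0 to 4 reads per library. Transcripts contradicted the labelled sex in 2 libraries: flox/flox replicate 1, labelled female, had Y-linked reads, and flox/flox replicate 2, labelled male, had Xist reads, so sex was taken from the transcripts. File names place all wt/flox and flox/flox libraries, but no wt/wt library, in a second batch. Genotype and batch therefore cannot be told apart in any comparison with wt/wt, and flox/flox against wt/flox is the comparison within a batch. The material matched liver: summed CPM of 20 hepatocyte markers ranged from 138428 to 163537 in wt/wt, 215977 to 233952 in wt/flox and 218626 to 312543 in flox/flox. Summed CPM of 16 endothelial markers was 290 to 452 in wt/wt, 151 to 160 in wt/flox and 126 to 262 in flox/flox, and that of 17 Kupffer cell and macrophage markers 71.4 to 299, 39.7 to 42.4 and 39.7 to 136. No gene of these marker lists was at 0 in any library. Fewer cells of a type and less RNA per cell cannot be told apart in such data, and the part of this shift in the results below was not tested.

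In flox/flox against wt/wt, the members called lower in the main fit were all mitochondrial. None of the peroxisomal genes was called in this fit, but library size alone, which shifts the median of all genes to -0.32, called 4 of them lower. The alternatives with upper-quartile factors, a mean CPM of at least 1, antisense reads added, the replicate block without a sex term, or wt/wt replicate 3 left out each called 1. Genes kept apart from both compartments were also called lower in some alternatives. DESeq2 called 12 members lower, of which 11 were mitochondrial and 0 peroxisomal. The fit with no low-count filter called 11, of which 10 and 0, and library size alone 22, of which 16 and 4. Of the 20 mitochondrial genes 10 fell and 1, Cpt1a, rose, with a median log2 fold change of -0.60. Of the 10 peroxisomal genes 0 were called, with a median of -0.16, and of the other 5 genes 1, Vnn1, rose. Across all 35 genes 2 rose and 10 fell, and the median was -0.36. Among all genes tested 14.5% rose and 14.6% fell, with a median of 0.01. Thus the count of higher members lay below the background and the count of lower members above it. Without both libraries of contradicted sex fewer members were called, not all of them the same genes, and the median over members was -0.55. This fit leaves 1 flox/flox library, whose spread is assumed to be like that of the other groups. Among called members, estimates that moved by over 1.5 times there and are not given below were -1.02 for Eci1 and -0.77 for Etfdh. With library size alone those of Acaa2, Echs1, Eci1 and Etfdh moved as far, to -0.97, -0.98, -0.98 and -0.81. Some members that were not called also moved as far. Without both libraries Cpt2 gave -1.07 and Hadha -0.50, and with library size alone -0.90 and -0.56. Whether the mitochondrial and peroxisomal shares differ was not tested.

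**Figure D1:**
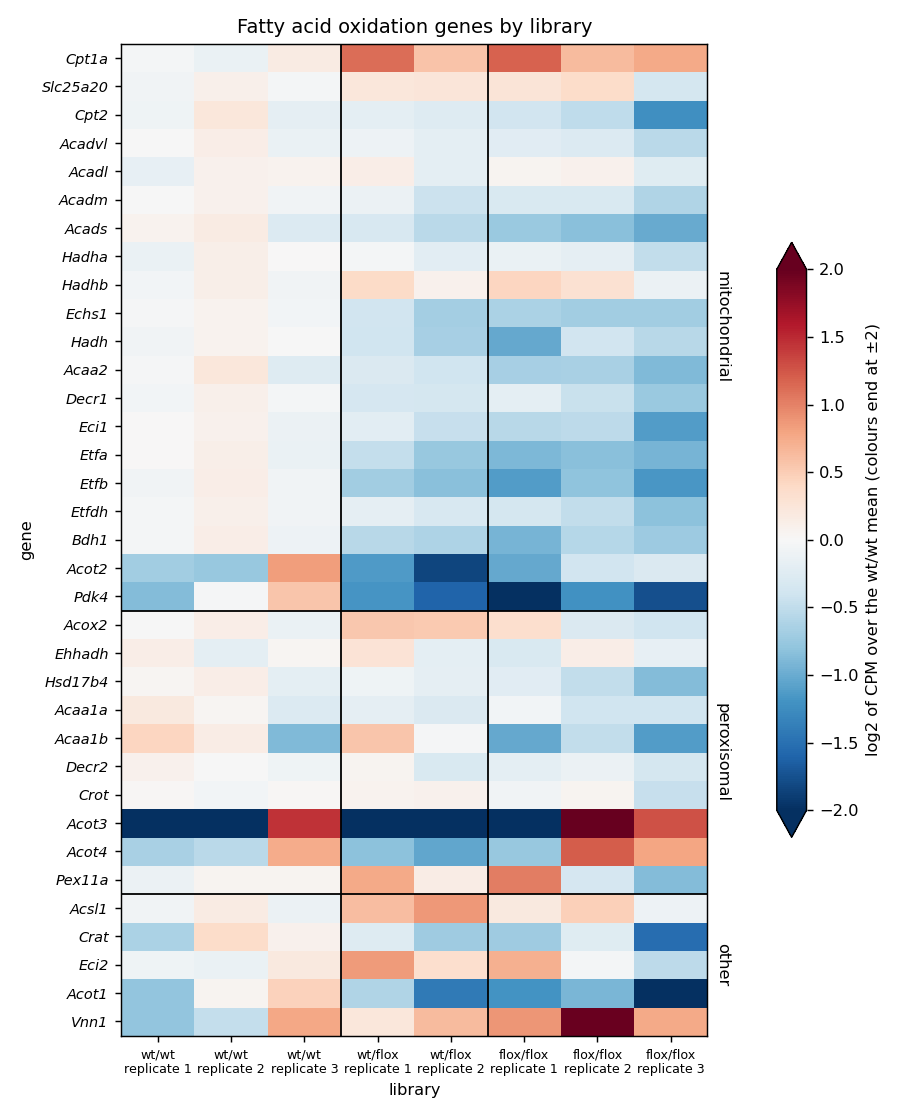
Colour gives the log2 of each library's CPM over the wt/wt mean, with genes as rows grouped by compartment and the 8 libraries as columns. The electron transfer rows (Etfa, Etfb, Etfdh) are below the wt/wt mean in all wt/flox and flox/flox libraries, Cpt1a is above it, and Acot3 and Acot4 are high in 1 wt/wt and 2 flox/flox libraries.

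The carnitine shuttle did not move as a unit. Cpt1a (chromosome 19, 3322334 to 3385733, GRCm38), the gate of the shuttle, stood at 248.9, 234.7 and 286.6 CPM in wt/wt against 557.7 and 379.8 in wt/flox and 583.8, 396.3 and 435.0 across flox/flox. Every wt/flox and flox/flox library lay above every wt/wt library. Cpt1a rose by a log2 fold change of 0.90 (SE 0.21, edgeR adjusted p = 0.0185), the sole increase among the mitochondrial genes. Cpt2, the inner-membrane enzyme that returns the acyl group to CoA, stood at 91.7, 113.0 and 86.0 CPM in wt/wt against 84.2 and 81.3 in wt/flox and 74.1, 68.1 and 41.4 across flox/flox. Its flox/flox libraries were all below the wt/wt ones, but the fitted log2 fold change of -0.56 (SE 0.20) missed the threshold (edgeR adjusted p = 0.0732). Consequently the ratio of Cpt1a to Cpt2 CPM was 2.71, 2.08 and 3.33 in wt/wt against 6.63 and 4.67 in wt/flox and 7.88, 5.82 and 10.5 across flox/flox, with no overlap between wt/wt and the others. Slc25a20, the carrier between the 2 enzymes, ranged from 60.9 to 68.7 CPM in wt/wt and from 50.0 to 82.9 in flox/flox, and was not called. Crat, which makes acetylcarnitine, and Crot, its peroxisomal relative for medium chains, were not called either, with log2 fold changes of -0.75 (SE 0.39) and -0.13 (SE 0.16). Crat overlaps Dolpp1 on the opposite strand over 59 exon bases.

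The call on Cpt1a rested on few libraries. It was lost without wt/wt replicate 1, wt/wt replicate 2 or flox/flox replicate 1, with edgeR adjusted p up to 0.178 and an estimate of 0.53 without the last of these. It was also lost when a trend with exon length was removed (0.70, edgeR adjusted p = 0.0539), with library size alone (0.58, edgeR adjusted p = 0.0717) and without both libraries of contradicted sex (0.59, edgeR adjusted p = 0.218).

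**Figure D2:**
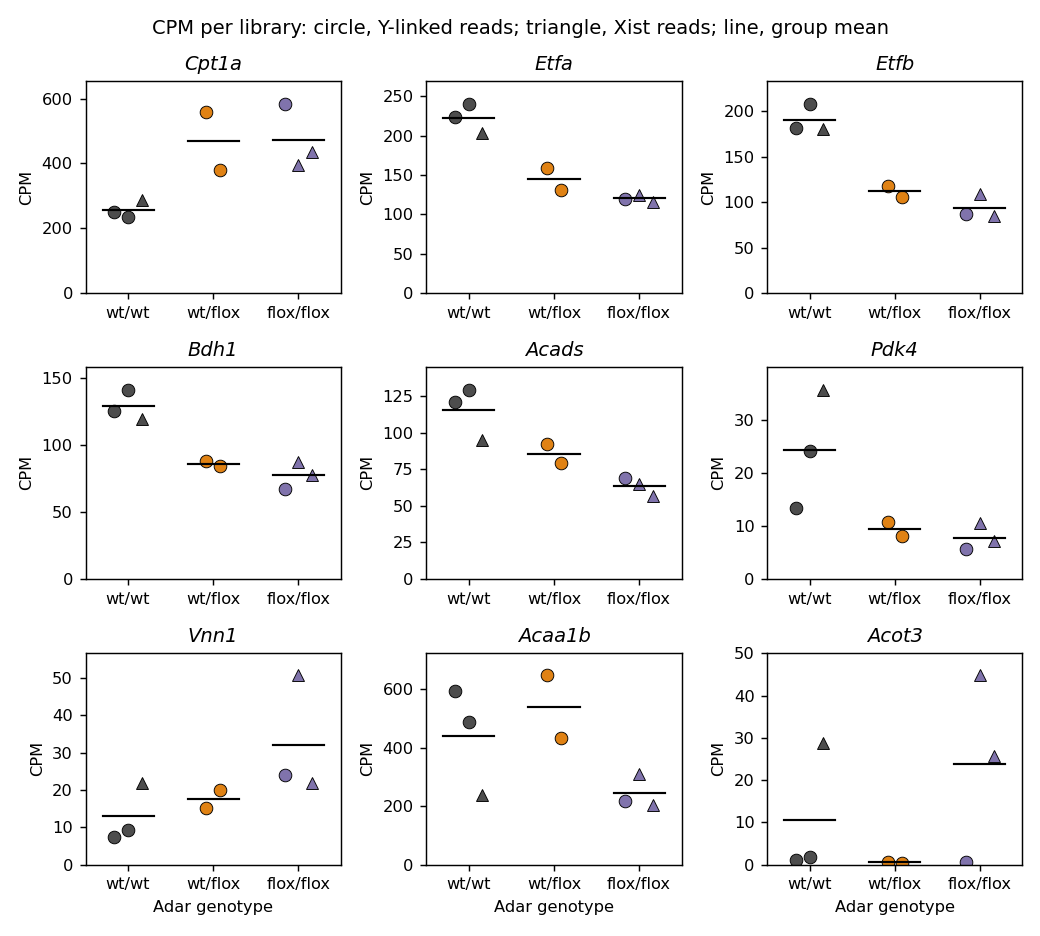
Each panel plots the CPM of 1 gene in the 8 libraries by Adar genotype, with circles for libraries with Y-linked reads, triangles for libraries with Xist reads and a line at the group mean. Etfa, Etfb and Bdh1 show wt/wt above both other genotypes with no overlap, Cpt1a shows wt/wt below them, and Acot3 separates by sex.

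Within the spiral of beta-oxidation itself, 4 of 9 mitochondrial genes fell and 0 rose, against 14.6% and 14.5% of all genes tested. The first step is shared by acyl-CoA dehydrogenases of different chain preference. Acads, for short chains, stood at 121.3, 129.6 and 95.0 CPM in wt/wt against 92.1 and 79.5 in wt/flox and 68.9, 64.8 and 57.1 across flox/flox. The flox/flox libraries lay below all others, and Acads fell by 0.75 on the log2 scale (SE 0.13, edgeR adjusted p = 0.00679). The longer-chain enzymes were not called: Acadm, for medium chains, had a log2 fold change of -0.36 (SE 0.14), Acadvl, for very long chains, -0.28 (SE 0.12), and Acadl, for long chains, -0.02 (SE 0.16). No difference between the dehydrogenases was tested.

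Among the later steps the soluble matrix enzymes fell and the membrane-bound long-chain complex was not called, a difference that was not itself tested. Echs1, the short-chain enoyl-CoA hydratase, stood at 157.6, 167.3 and 153.1 CPM in wt/wt against 122.8 and 99.3 in wt/flox and 102.4, 98.7 and 98.3 across flox/flox, and fell by 0.65 (SE 0.12, edgeR adjusted p = 0.00907). Hadh, the short-chain hydroxyacyl-CoA dehydrogenase, stood at 191.6, 211.1 and 198.3 CPM in wt/wt against 152.7 and 126.1 in wt/flox and 98.1, 153.7 and 136.1 across flox/flox, and fell by 0.74 (SE 0.17, edgeR adjusted p = 0.0183). Acaa2, the matrix thiolase and the most abundant member per exon length, stood at 548.2, 652.6 and 465.9 CPM in wt/wt against 453.5 and 422.1 in wt/flox and 351.5, 355.5 and 301.9 across flox/flox, and fell by 0.64 (SE 0.14, edgeR adjusted p = 0.0171). For each of these 3 genes every flox/flox library was below every wt/wt library. All 3 calls were lost without flox/flox replicate 1, with edgeR adjusted p of 0.0537 for Echs1, 0.128 for Hadh, whose estimate was then -0.46, and 0.116 for Acaa2. Hadha and Hadhb, the subunits of the trifunctional protein that handles long chains, were not called, with log2 fold changes of -0.23 (SE 0.14) and 0.29 (SE 0.16). These partners lie head to head on chromosome 5 with 86 bases between their annotated starts, yet their estimates had opposite signs. The ratio of Hadhb to Hadha CPM was 0.489, 0.466 and 0.442 in wt/wt against 0.627 and 0.569 in wt/flox and 0.69, 0.646 and 0.603 across flox/flox, so every library of the second batch exceeded every wt/wt library.

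Auxiliary enzymes prepare double bonds for the cycle. Eci1, the mitochondrial enoyl-CoA isomerase, stood at 69.4, 73.4 and 63.7 CPM in wt/wt against 59.2 and 49.9 in wt/flox and 47.1, 48.1 and 31.7 across flox/flox, and fell by 0.64 (SE 0.18, edgeR adjusted p = 0.0321). That call was lost without any single wt/wt or wt/flox library or without flox/flox replicate 1, with edgeR adjusted p up to 0.145. Decr1, the mitochondrial dienoyl-CoA reductase, was not called at -0.38 (SE 0.13), nor was Eci2, an isomerase of peroxisomes and mitochondria, at 0.18 (SE 0.29), or Decr2, the peroxisomal reductase, at -0.19 (SE 0.14).

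All 3 genes of electron transfer from the dehydrogenases to the respiratory chain fell. Etfa and Etfb encode the subunits of the flavoprotein that accepts the electrons, and Etfdh the membrane enzyme that hands them to ubiquinone. Etfa (chromosome 9, 55454508 to 55512243) stood at 223.2, 240.4 and 203.7 CPM in wt/wt against 159.4 and 130.9 in wt/flox and 119.6, 125.0 and 116.3 across flox/flox. Etfb (chromosome 7, 43444083 to 43457800) stood at 181.9, 208.4 and 180.6 CPM in wt/wt against 117.7 and 106.3 in wt/flox and 87.7, 108.8 and 85.0 across flox/flox. In GENCODE M21, 617 of the 1164 exon bases of Etfb are shared with Gm45233 on the same strand. Gm45233 is absent from the count tables, and 61 bases are shared with Mir7051. The assignment of reads there to Etfb is therefore uncertain. In both, wt/wt lay above the other genotypes, and for Etfa flox/flox also lay below wt/flox. The log2 fold change was -0.85 for Etfa (SE 0.13, edgeR adjusted p = 0.0052) and -1.03 for Etfb (SE 0.15, edgeR adjusted p = 0.00492). Etfdh stood at 204.9, 225.5 and 201.7 CPM in wt/wt against 185.3 and 169.3 in wt/flox and 165.8, 150.5 and 119.4 across flox/flox, and its smaller fall of 0.48 (SE 0.14, edgeR adjusted p = 0.0356) was lost on leaving out any single library other than flox/flox replicate 2, with edgeR adjusted p up to 0.213. The 2 flavoprotein subunits kept a near-constant proportion, with an Etfa to Etfb CPM ratio from 1.13 to 1.23 across wt/wt, of 1.23 and 1.35 for wt/flox, and from 1.15 to 1.37 for flox/flox.

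Because these subunit genes moved together, the 100 bases before their RefSeq starts (GRCm38.p6) are shown on the gene's strand, with CCAAT boxes in capitals on either strand (CCAAT or ATTGG). Etfa lies at chr9:55512244-55512343 on the minus strand and Etfb at chr7:43443972-43444071 on the plus strand.
Etfa: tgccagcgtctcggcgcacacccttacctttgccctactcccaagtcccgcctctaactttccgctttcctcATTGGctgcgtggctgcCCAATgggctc
Etfb: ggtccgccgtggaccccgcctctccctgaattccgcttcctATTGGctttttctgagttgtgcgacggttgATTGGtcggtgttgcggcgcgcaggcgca
Both windows hold a pair of CCAAT boxes. The same windows of the other lower members with an entry, Acads, Echs1, Hadh, Eci1, Etfdh, Bdh1 and Pdk4, hold none. A link between these letters and the falls was not tested. A match is a description of the letters and not of a bound factor.

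Over the 250 bases before the start, 30 of the 35 members had a RefSeq entry, and motifs were searched on both strands. CCAAT was found in 17 of 30 members (56.7%), against 40.4% of 11491 tested genes with an entry and 37.5% of all 27025 genes, and in 5 of the 9 lower members with an entry. GGGCGG, the GC box, was found in 17 of 30 (56.7%), against 59.9% of tested genes and 35.4% of all. AGGTCA, a nuclear receptor half-site that is also contained in the estrogen-related receptor element, was found in 5 members (16.7%; Cpt1a, Acadvl, Acadm, Echs1 and Acot4), against 13.6% of tested genes and 15.8% of all. The direct repeat 1 element, at which PPAR-alpha binds with its partner RXR, and the estrogen-related receptor element were each found in 0 members, against 0.4% and 0.422% of all genes, which says only that these letters are not in this window.

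For ketone bodies the member gene is Bdh1, which converts acetoacetate to hydroxybutyrate. It stood at 125.5, 141.6 and 119.8 CPM in wt/wt against 88.0 and 84.2 in wt/flox and 67.6, 87.1 and 78.1 across flox/flox, with wt/wt above all others. Bdh1 fell by 0.76 on the log2 scale (SE 0.14, edgeR adjusted p = 0.00909, and 0.0661 without flox/flox replicate 1). Acat1, a thiolase of the pathway's other genes that supplies acetoacetyl-CoA, fell by 0.76 (SE 0.15, edgeR adjusted p = 0.00972).

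Pdk4, a kinase that shuts pyruvate dehydrogenase so that fat is burned in place of glucose, had the largest fall among the members called. It stood at 13.3, 24.1 and 35.7 CPM in wt/wt against 10.7 and 8.04 in wt/flox and 5.73, 10.5 and 7.22 across flox/flox. The wt/wt libraries themselves spread widely, but none reached down to the other groups. Pdk4 fell by 1.86 on the log2 scale (SE 0.27, edgeR adjusted p = 0.00506). Pdk4 and Cpt1a are both known targets of PPAR-alpha, and their values moved in opposite directions. A part of PPAR-alpha in either change was not tested.

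**Figure D3:**
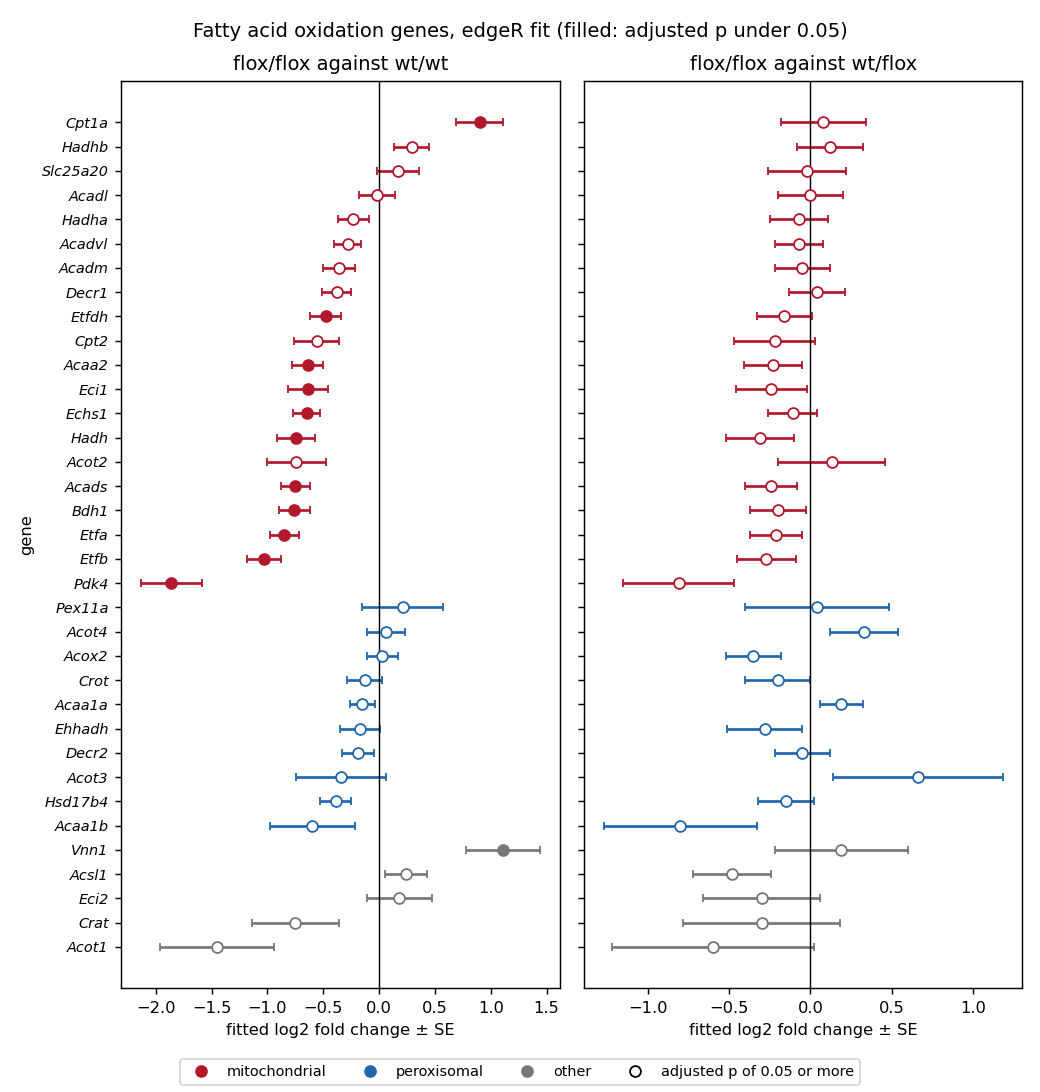
Points give the fitted log2 fold change and bars its standard error for each gene, in flox/flox against wt/wt on the left and against wt/flox on the right, coloured by compartment and filled where the adjusted p was under 0.05. On the left 12 points are filled, all of them mitochondrial except Vnn1, and on the right none is filled.

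The peroxisomal enzymes showed no called difference in this fit. The cycle there begins with oxidases such as Acox2, for branched chains, at 163.0, 179.3 and 150.1 CPM in wt/wt and 207.2, 134.1 and 124.4 across flox/flox (log2 fold change 0.03, SE 0.14). Ehhadh and Hsd17b4, the bifunctional enzymes of the L and D pathways, had log2 fold changes of -0.17 (SE 0.18) and -0.39 (SE 0.14). For Hsd17b4 every flox/flox library, at 281.2, 232.8 and 179.4 CPM, was below every wt/wt library, at 338.8, 361.1 and 285.6, with an edgeR adjusted p of 0.0682. Hsd17b4 passed the threshold with upper-quartile factors (edgeR adjusted p = 0.0306), a mean CPM of at least 1 (0.038), antisense reads added (0.0496), the replicate block without a sex term (0.0311) and library size alone (0.00189). Library size alone also called Acaa1a, Crot and Decr2 lower. The thiolases Acaa1a and Acaa1b are near-identical neighbours on chromosome 9, and the deposited files set multiply placed reads aside, so the division between them is uncertain. Acaa1b stood at 596.3, 487.5 and 238.1 CPM in wt/wt against 648.4 and 433.7 in wt/flox and 216.7, 311.6 and 203.8 across flox/flox, with 1 wt/wt library inside the flox/flox range and a log2 fold change of -0.60 (SE 0.38), which without wt/wt replicate 3 was -1.32 (edgeR adjusted p = 0.0444). Acaa1a had a log2 fold change of -0.15 (SE 0.11). Pex11a, which drives peroxisome division and is induced by PPAR-alpha, ranged from 30.9 to 34.7 CPM in wt/wt and from 18.2 to 68.0 in flox/flox, and gave 0.21 (SE 0.36).

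Of the 4 acyl-CoA thioesterases, which release free fatty acid from CoA, 3 separated by the sex read from the transcripts in these libraries. Acot2 (mitochondrial), Acot1 (cytosolic), Acot4 and Acot3 (peroxisomal) lie within 72542 bases on chromosome 12 and share sequence, so their counts are uncertain in the same way as the thiolases. Acot3 stood at 1.23, 1.78 and 28.9 CPM in wt/wt against 0.76 and 0.54 in wt/flox and 0.688, 44.8 and 25.8 across flox/flox. The high values belong to the 3 libraries with Xist reads and the low ones to the 5 with Y-linked reads. Acot4 showed the same order, at 16.9, 18.2 and 44.2 CPM in wt/wt against 14.9 and 12.9 in wt/flox and 15.7, 61.3 and 45.9 across flox/flox. Acot2 did as well, at 3.28, 3.15 and 9.54, 2.43 and 1.49, and 2.62, 4.08 and 4.35 CPM. The ratio of the mean in Xist libraries to the mean in the others was 33.2 for Acot3, 3.21 for Acot4 and 2.31 for Acot2. In all, 3 members lay higher in every Xist library and 1, Acox2, lay lower with a ratio of 0.665, while 3.8% and 3.59% of all tested genes did so. No test of sex was made. Sex was also tied to age: every 7-week mouse had Xist reads and every 11-week mouse Y-linked reads. Of the 9-week mice only flox/flox replicate 2, whose labelled sex is contradicted, had Xist reads. A part of age in this separation was not tested. In the main fit, which includes sex, none of the 4 thioesterases was called in flox/flox against wt/wt. Acot1, which did not separate by sex, gave -1.45 there (SE 0.51, edgeR adjusted p = 0.0674).

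The windows of 100 bases before the starts of Acot3 and Acot4, the pair with the widest separation by sex, are shown with CCAAT, and the half-site AGGTCA or its reverse TGACCT, in capitals. Acot3 lies at chr12:84052044-84052143 and Acot4 at chr12:84038279-84038378, both on the plus strand.
Acot3: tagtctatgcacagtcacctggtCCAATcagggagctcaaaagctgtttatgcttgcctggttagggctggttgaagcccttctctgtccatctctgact
Acot4: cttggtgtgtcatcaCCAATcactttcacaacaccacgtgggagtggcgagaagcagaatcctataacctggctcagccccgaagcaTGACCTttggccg
Each holds 1 CCAAT box, and Acot4 also holds a half-site.

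Vnn1, a pantetheinase at the cell surface that is strongly induced by PPAR-alpha agonists, was the other member that rose. It stood at 7.47, 9.32 and 22.0 CPM in wt/wt against 15.2 and 20.1 in wt/flox and 23.9, 50.7 and 21.9 across flox/flox, so wt/wt replicate 3 fell inside the flox/flox range. The log2 fold change was 1.11 (SE 0.33, edgeR adjusted p = 0.0429). Its call was lost on leaving out any single library other than flox/flox replicate 3, with edgeR adjusted p up to 0.309 and an estimate of 0.72 without flox/flox replicate 1, and without both libraries of contradicted sex its estimate was -0.02. Acsl1, which activates long-chain fatty acids at the start of the pathway, stood at 812.9, 956.2 and 787.2 CPM in wt/wt against 1300.8 and 1550.1 in wt/flox and 978.8, 1180.7 and 796.1 across flox/flox. Its wt/flox libraries were above all others, and it was not called in flox/flox against wt/wt (0.24, SE 0.19).

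Within the second batch, flox/flox against wt/flox, 0 of the 35 members were called, as was 0% of all genes tested. The edgeR fit gave 525 genes an unadjusted p under 0.05, 1 of them a member, and its smallest adjusted p was 0.993. DESeq2 called 11 genes higher and 5 lower, of which 0 were members. The member was Pdk4, with a log2 fold change of -0.81 (SE 0.34). The median over members was -0.16 and 26 of 35 estimates were below 0, whereas the median over all genes was 0.00. Without both libraries of contradicted sex, which leaves 1 flox/flox library, 0 members were called and their median was -0.38. Every flox/flox library lay below every wt/flox library for 12 members, and above for 3 (Acot2, Acot4 and Vnn1), against 13.1% and 14.2% of all genes. The 12 were 7 of the 20 mitochondrial genes (Acaa2, Etfa, Acadvl, Acads, Cpt2, Eci1 and Etfdh), 4 of the 10 peroxisomal genes (Acox2, Hsd17b4, Acaa1b and Crot) and Acsl1. Etfb, by contrast, overlapped, at 117.7 and 106.3 CPM against 87.7, 108.8 and 85.0. The flox/flox group holds 2 Xist libraries and the wt/flox group none. Acot2 and Acot4, higher here, and Acox2, lower here, are among the genes that separate by sex. Fitted changes for the genes that fell against wt/wt were smaller here, from -0.11 (SE 0.15) for Echs1 to -0.31 (SE 0.21) for Hadh, apart from Pdk4.

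In wt/flox against wt/wt, which crosses the batches and shares its controls with the first comparison, 5 members fell and 0 rose, while 6.9% of all genes fell and 7.58% rose. The lower genes were Acads (-0.51, SE 0.14), Echs1 (-0.54, SE 0.13), Etfa (-0.64, SE 0.14), Etfb (-0.76, SE 0.16) and Bdh1 (-0.56, SE 0.15), with edgeR adjusted p from 0.0274 for Etfb to 0.0484 for Bdh1. All 5 are mitochondrial, and for each the wt/flox libraries lay below every wt/wt library. Cpt1a gave 0.82 (SE 0.24, edgeR adjusted p = 0.0601) and Pdk4 -1.05 (SE 0.31, edgeR adjusted p = 0.0604), neither called. No member was called lower without wt/wt replicate 1, wt/wt replicate 2 or either wt/flox library, with edgeR adjusted p up to 0.243.

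Related pathways were counted from lists of other genes, to be read beside the 14.5% higher and 14.6% lower among all genes tested. Of 35 further mitochondrial acyl-CoA and ketone genes tested, 6 rose and 11 fell in flox/flox against wt/wt, among them Mcee, of propionate breakdown (-1.07, SE 0.13), and Acot13, another thioesterase (-1.11, SE 0.18). Of 29 further peroxisomal lipid genes 5 rose and 8 fell, with Ech1, a dienoyl-CoA isomerase (-1.04, SE 0.18), and Scp2, a thiolase and lipid carrier (-0.71, SE 0.13), lower, while Far1, which makes fatty alcohols for ether lipids, fell by 1.43 (SE 0.31) from 1.47 CPM. The absence of calls among the 10 peroxisomal members thus did not extend to the organelle's lipid genes as a whole. Of 15 peroxisome biogenesis genes 3 rose, among them Pex13 and Pex3 by 0.53 and 0.46, and 0 fell, but the calls on Pex13 and Pex3 were lost in 7 and 9 of 23 alternatives.

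Respiratory chain subunits, the next stop for the electrons, gave the most one-sided count, with 0 higher and 43 lower of 50 (median -0.78), the 3 of smallest adjusted p being Ndufa2, Ndufb3 and Ndufb10 of complex I at -1.55, -1.59 and -1.58. Of 22 genes of the tricarboxylic acid cycle 8 fell and 0 rose (median -0.33), including Suclg1, Idh3b and Sdhb. Among 19 genes of fatty acid uptake and activation 6 rose and 5 fell. Fabp1, the liver's fatty acid binding protein, fell from 819.5 ± 146 to 191.0 ± 41.8 CPM (SD, n = 3 each; log2 fold change -1.96, SE 0.16, edgeR adjusted p = 0.00177), Dbi, which binds acyl-CoA, fell by 0.99, and Slc27a5, a transport protein and bile acid ligase, rose by 0.74. Of 35 PPAR-alpha regulators and further targets 5 rose and 4 fell (14.3% and 11.4%, median 0.30), near the shares of all genes tested. Fabp1 is counted in this list as well and had its smallest adjusted p. Also among those called were Sirt1, a deacetylase, at 0.48, and Ucp2, a mitochondrial carrier, at -0.87. Of 19 genes of fatty acid synthesis 3 rose and 1 fell, with Acaca, which makes the malonyl-CoA that inhibits Cpt1a, at 0.64 (SE 0.13), Dgat1, of triglyceride synthesis, at 0.62, and Slc25a1, the citrate carrier, at -0.94. Over 23 alternatives, Fabp1, Ech1, Ndufa2, Ndufb3 and Ndufb10 kept their calls throughout, Mcee, Acot13 and Slc25a1 lost theirs in 1, without both contradicted libraries, and the other genes named from these lists lost theirs in 2 (Dbi and Suclg1) to 9 (Pex3).

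**Figure D4:**
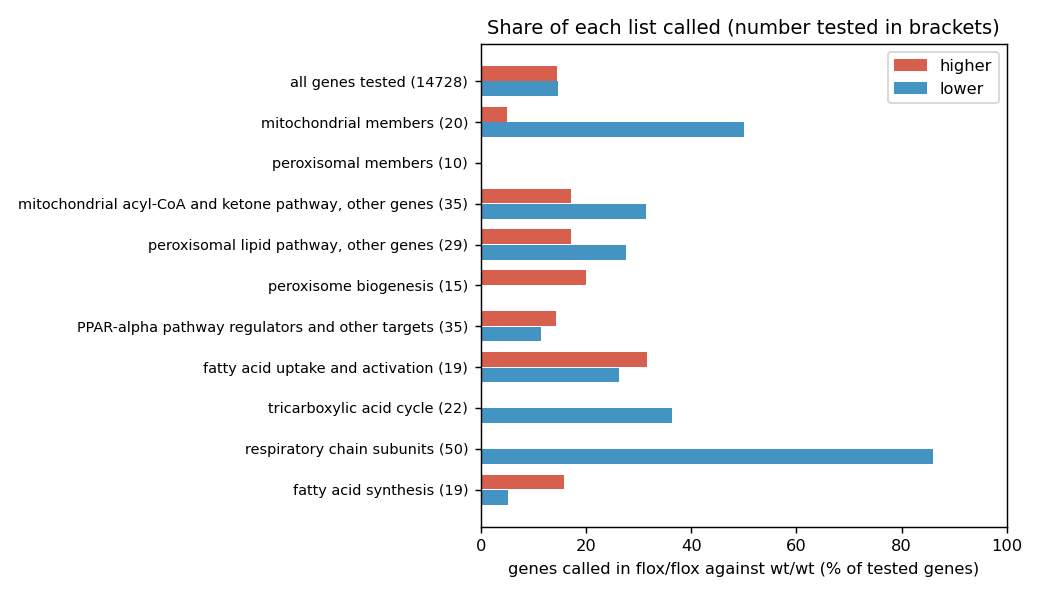
Bars give the percent of each list's tested genes that were called higher (red) or lower (blue) in flox/flox against wt/wt, with the number tested in brackets. Respiratory chain subunits reach 86% lower and mitochondrial members 50%, against 14.6% for all genes, while no bar rises for the 10 peroxisomal members.

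The share of sense reads outside genes was 22.2% to 28.1% in wt/wt, 31.7% to 37.3% in wt/flox and 34.5% to 40.0% in flox/flox. Fold changes against wt/wt varied with exon length. In flox/flox against wt/wt the median log2 fold change of all tested genes was 0.16 under 1000 bases (676 genes, 0 of them members), -0.42 for exon lengths of 1000 to 2000 bases, -0.18 for 2000 to 4000, 0.08 for 4000 to 8000 and 0.30 from 8000. The members in the classes from 1000 bases had medians of -0.75 (4 genes), -0.37 (18), -0.04 (10) and -0.23 (3). Etfb, at 1164 bases, is the shortest member. With the trend removed from each library, 1 member rose and 8 fell: Cpt1a, Acaa2 and Eci1 were no longer called. Without the trend the estimate was -0.27 for Acaa2, -0.40 for Eci1, -0.56 for Etfa and -0.59 for Etfb, against -0.64, -0.64, -0.85 and -1.03 with it. Other called members moved away from 0: Echs1 from -0.65 to -0.87, Etfdh from -0.48 to -0.67, Hadh from -0.74 to -0.80 and Vnn1 from 1.11 to 1.32. The part of RNA quality or library preparation in these differences was not tested.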

How the data were processed

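Each deposited file holds 1 library, none of them a copy of another, as raw read counts per gene symbol, with a sense and an antisense count for each gene, per the file headers. The build is GRCm38 (mm10) and DESeq2 is named, per the submitters' processing notes, with the aligner, counter and gene models not given in the sources used here. The 5 rows that name no gene were left out, among them sense reads in no gene (22.2% to 40.0%) and reads placed several times (8.97% to 10.9% in wt/wt, 3.92% to 4.98% elsewhere). Nothing in the labels shows that a mouse gave more than 1 library, and p-values measure the spread between these libraries.

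Sense counts of all 8 libraries entered 1 edgeR 4.0.16 fit (R 4.3.3; quasi-likelihood F test, two-sided, TMM, filterByExpr on the groups, genotype and sex by Xist and Y-linked transcripts), with Benjamini-Hochberg adjustment over 14728 genes at 0.05. Fold changes are those of the fit and differ from ratios of group means. Exon lengths and coordinates come from GENCODE M21, which matched 96.6% of symbols, and promoters from RefSeq (GRCm38.p6). Exon length is the union of all annotated exons of a gene and can exceed the length of the transcript expressed. The scripts were tested on simulated counts. Alternatives were RLE or upper-quartile factors, library size alone, no low-count filter or a minimum mean CPM of 1, tests with DESeq2 1.42.0 and limma-voom (limma 3.58.1), labelled or no sex, the replicate block, only the compared groups, removal of an exon length trend, antisense added, and libraries left out. The members, lists and tests were chosen with earlier results of these data known. All members are named, with up to 3 called genes of smallest adjusted p from each other pathway list and only counts and sums for cell types. Some genes that this rule names are not reported here. Other lists gave, in flox/flox against wt/wt, 4 higher and 2 lower of 20 hepatocyte, 0 and 13 of 16 endothelial, 0 and 2 of 17 Kupffer cell, 0 and 3 of 13 lymphocyte and neutrophil, 0 and 2 of 12 stellate cell, 2 and 1 of 9 cholangiocyte, 1 and 1 of 4 erythroid and platelet, and 1 (Dusp1) and 0 of 16 dissociation stress genes tested.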

Additional observations from a re-analysis of the deposited data

How the results depend on the processing

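In flox/flox against wt/wt, where 2 members rose and 10 fell, the number higher was 1 with limma-voom, labelled sex, no sex term, only the compared groups or the exon length trend removed, and 0 with library size alone or without both libraries of contradicted sex. The number lower was 22 with library size alone, which shifts the median of all genes to -0.32 and calls 691 genes higher and 4159 lower, and 5 without both contradicted libraries, where 1 flox/flox library is left and Vnn1 had an estimate of -0.02. Leaving out each library gave 0 to 2 higher and 5 to 11 lower. The count of 5 came without flox/flox replicate 1, and the count of 0 higher without that library, wt/wt replicate 1 or wt/wt replicate 2. Acads, Etfa, Etfb and Pdk4 kept their calls in all 8 of these fits, and Etfb and Pdk4 also in the other 15 alternatives. In wt/flox against wt/wt, where 0 rose and 5 fell, the number higher was 1 with a mean CPM of at least 1 or labelled sex, 2 with DESeq2 or no sex term, and 5 with only the compared groups or without both contradicted libraries. The number lower was 3 with RLE factors or labelled sex, 21 with library size alone and 1 with the length trend removed. Leaving out each library gave 0 to 2 higher and 0 to 5 lower. Other alternatives stayed within 1.5 times these counts. In flox/flox against wt/flox 0 members were called under every alternative. The cause of these shifts was not tested.

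With the replicate block and sex, 1 member rose and 6 fell in flox/flox against wt/wt, and 0 and 0 in wt/flox against wt/wt. With the replicate block and no sex term these counts were 1 and 13, and 1 and 2. Same-numbered libraries of different groups share an age and correlated by 0.011 to 0.447 in their deviations from the group means. Different-numbered ones correlated by -0.471 to 0.337. The main fit did not take the numbers to pair the mice, and pairing was not tested. Groups of 2 or 3 limit the precision.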

Other observations

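Per exon kilobase, the members of highest level in wt/wt were Acaa2 at 366 CPM, Acaa1b at 225, Etfb at 163, Crot at 125 and Etfa at 121. The lowest were Acot2 at 2.42, Acot3 at 3.09 and Acot4 at 3.97. The length counts every annotated exon of a gene, so this scale allows only a rough comparison between genes. Summed CPM of the 20 mitochondrial members ranged from 3264 to 3722 in wt/wt, 2799 to 3287 in wt/flox and 2388 to 2929 in flox/flox, so flox/flox lay wholly below wt/wt. For the 10 peroxisomal members the sums ranged from 1938 to 2369, 2139 to 2508 and 1494 to 1991, and wt/wt overlapped with both other groups. Antisense reads made up 2.15% to 13.2% of a member's reads over all members and libraries.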
